A study of Mus musculus with 6 samples.

Results

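Genes of the activator protein 1 (AP-1) system were read out of the RNA-seq counts of mouse frontal cortex: Fos, Fosb, Fosl2, Jun, Junb, Jund, Atf3 and Maff. They were chosen by symbol, and all 8 were found among the 33000 genes of the count table. The comparison was between 3 GFAP-IL6 mice, homozygous for the transgene, and 3 wild-type (WT) mice, all 3 months old. Each sample had 1 TruSeq mRNA library. The study names C57BL/6 as the strain of the WT mice. GFAP-IL6 mice carry an Il6 transgene under the promoter of Gfap, a gene of astrocytes, so that astrocytes make the cytokine IL6. The WT mice carry no transgene, and neither group received a further treatment in the labels. Homozygous mice were the only carriers in these libraries, so the insertion of the transgene cannot be told apart from the IL6 it produces. The labels give no litter or batch and do not say in words that each library is a separate animal, so p-values measure the spread between these libraries.

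AP-1 is a dimer of basic leucine zipper (bZIP) proteins. It binds the TPA response element, a site of the form TGANTCA, and in other pairings the cyclic AMP response element (CRE), TGACGTCA. Fos proteins bind DNA only when paired with a Jun protein, whereas Jun proteins can also pair with each other. In cortex, Fos, Fosb and Junb are immediate early genes that neurons transcribe within minutes of activity, Jund is made at a steady level in most cells, and Atf3 and Jun are known for induction in injured neurons. Maff is a small Maf protein, which has a bZIP but no activation domain.

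The start regions of these genes are shown because several are textbook examples of promoters that respond to signals. Sequences are from the RefSeq promoter table of GRCm38.p6, read on the strand of the gene, and 0 marks the base RefSeq gives as the start. Each window has 30 bases. In the lines that follow, capitals mark a match to TGACG, the core of the CRE, or to its reverse complement CGTCA, a motif chosen after the sequences were seen. The match shown begins 66 bases before the start for Fos, which has a further match 129 bases before, 60 for Fosb, 106 for Junb and 7 for Atf3.
Fos (chr12:85473811-85473840, plus strand): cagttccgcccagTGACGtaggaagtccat
Fosb (chr7:19310089-19310118, minus strand): atggagttgcgggTGACGcaagcgcggggg
Junb (chr8:84978838-84978867, minus strand): cgcttcctgacagTGACGcgagccgcctcc
Atf3 (chr1:191183324-191183353, minus strand): attaatagcattaCGTCAgcctgggattgg

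The whole CRE and a related 8-base site are shown for Maff and Jun. Capitals mark the letters that match TGANNTCA, the form with a spacer of 2 bases, which includes the CRE TGACGTCA itself.
Maff (chr15:79347480-79347509, plus strand): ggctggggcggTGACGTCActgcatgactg
Jun (chr4:95052249-95052278, minus strand): aagcctcggggTGACATCAtgggctatttt

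TATA boxes, matched as TATAAA, were found for Fos and Junb.
Fos (chr12:85473845-85473874, plus strand): tcacagcgcttcTATAAAggcgccagctga
Junb (chr8:84978731-84978760, minus strand): tgacaaattcagTATAAAagcttggggctg
The Fos match begins 33 bases before the start. The Junb match begins at the RefSeq start itself, which lies 30 bases upstream of the GENCODE start of Junb.

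Each motif was searched on both strands in windows of 250 bases before to 50 bases after the start of 32851 promoters of 27025 genes, and shares are of genes with a match in any of their windows. TGACG occurred in 5 of the 8 genes (Fos, Fosb, Junb, Atf3 and Maff) and in 23.0% of all genes. The whole CRE occurred only in Maff among the 8, and in 2.03% of all genes. TGANNTCA occurred in Jun, Jund and Maff and in 15.9% of all genes. The form TGANTCA, which is broader than the TPA response element and includes it, occurred in 0 of the 8, against 8.97% of all genes. The TATA box occurred in 2, against 15.7%. The STAT motif TTCNNNGAA, which 9.55% of all genes held, was found for Maff. The CArG box bound by SRF, held by 1.81%, was found within these windows for 0 of the 8. A CArG box more than 250 bases before the start, at Fos or another gene, would have been missed. Fosl2 had no match to any of these. The RefSeq windows of Atf3, Fosl2 and Jund start away from the GENCODE start, by 34706 and 671 bases downstream and 1210 bases upstream, and Maff had 3 windows. These matches describe letters in a window, and no binding was measured.

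Total counts ranged from 11591066 to 16877001 in WT and from 7559524 to 11072008 in GFAP-IL6. Counts of Il6 in the WT libraries were 0, 2 and 0, against 12, 10 and 24 for the carriers, and they do not separate the transgene from the gene itself. Across the 15341 genes tested, 407 were higher (2.65%) and 32 lower (0.209%) in GFAP-IL6 at an adjusted p under 0.05 by the quasi-likelihood test of edgeR, with Benjamini-Hochberg adjustment over all genes tested. The marker genes of neurons, astrocytes and oligodendrocytes were all detected, as were Tbr1, Neurod6, Rorb and Cux2 of cortical projection neurons. WT replicate 2 stood apart in the summed level of 6 striatal markers (285 CPM against 153 and 160), and WT replicate 3 in that of 5 choroid plexus markers (610.3 CPM against 4.18 and 18.4). CPM are counts scaled to a common library total, with the TMM factors of edgeR.

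Junb rose in the GFAP-IL6 cortex, and it was the only member past the threshold. Fos and Fosl2 were higher in each GFAP-IL6 library than in any WT library, but their adjusted p missed the threshold. Fosb, Jun and Jund overlapped between the groups, and Maff and Atf3 had too few counts for a narrow estimate. Of the 8 genes, 7 passed the filter on low counts and Atf3 did not. At an adjusted p under 0.05, 1 of the 7 was called in either direction, beside 2.86% of all genes. That gene was higher, beside 2.65% of all genes, and 0 were called lower by edgeR or DESeq2. At an unadjusted p under 0.05, 0 were lower, against 9.37% of all genes. At an unadjusted p under 0.05, 3 of the 7 were higher, against 11.1% of all genes. The same 3, Junb, Fos and Fosl2, were higher without overlap between groups, against 13.8% of all genes. The fitted log2 fold change was above 0 for 6 of the 7, against 49.4% of all genes, and its median over the 7 was 0.38 against 0.00 for all genes. In these bulk samples, a change in the number of cells of a type and a change in RNA per cell cannot be told apart.

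**Figure D1:**
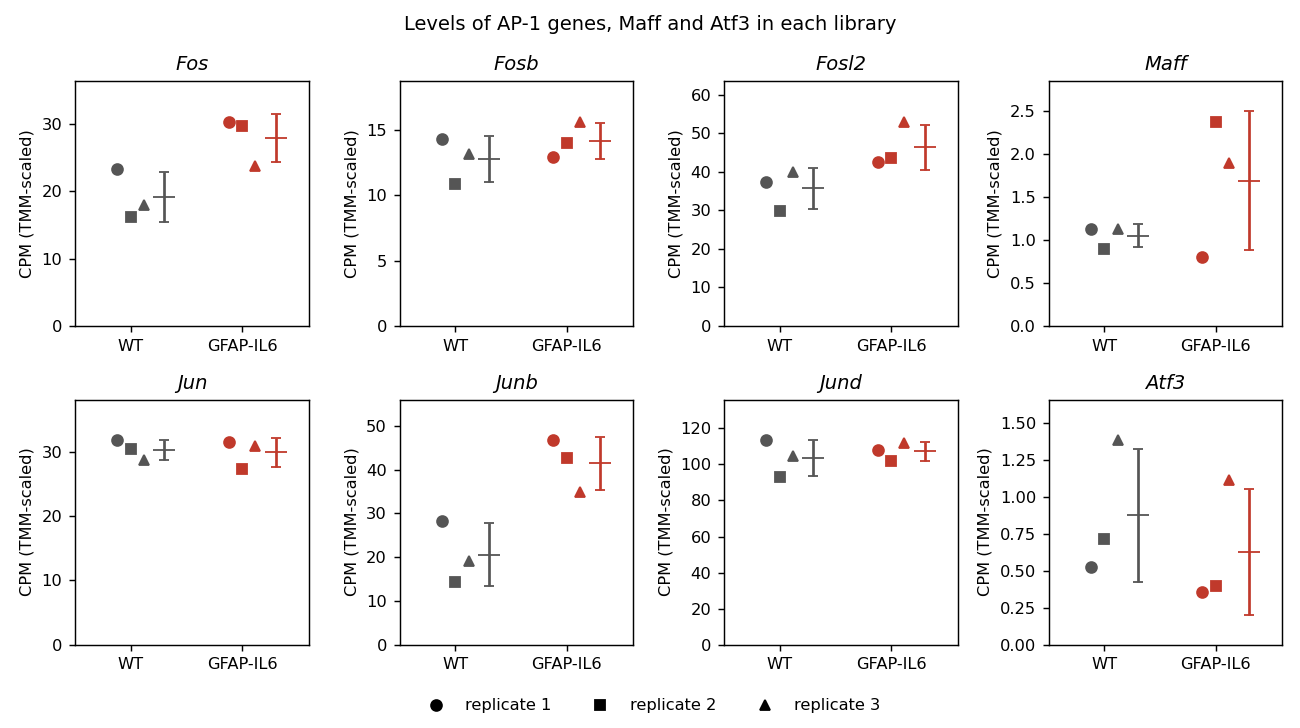
Level of each gene in each library, as TMM-scaled CPM on a linear axis from 0. Points are the 3 WT (grey) and 3 GFAP-IL6 (red) libraries with the replicate given by the marker shape, and the bar beside each group is the mean ± SD. All GFAP-IL6 libraries lie above all WT libraries for Fos, Fosl2 and Junb, and the groups overlap for the other 5 genes.

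Among the Jun proteins, Junb (ENSMUSG00000052837.5, chr8:84974484-84978718, minus strand, GRCm38) is the one that rises early with Fos after many stimuli and can hold back the activity of Jun on some promoters. Its level was 28.3, 14.3 and 19.1 CPM in WT replicates 1 to 3 and 46.7, 42.7 and 34.9 CPM in GFAP-IL6 replicates 1 to 3. The lowest GFAP-IL6 library, replicate 3, was thus above the highest WT library, replicate 1. Group means were 20.5 ± 7.14 CPM for WT and 41.4 ± 5.97 CPM for GFAP-IL6 (SD over 3 libraries). The difference was a log2 fold change of 1.03 with a standard error (SE) of 0.19, a fold of 2.05 with a 95% interval of 1.53 to 2.75 (edgeR, adjusted p = 0.0108). By p, Junb ranked at position 231 of all genes tested. It also passed the study's added threshold of an absolute log2 fold change over 1, as did 1.38% of all genes tested.

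The WT libraries were spread more widely for Junb than for most genes. Its coefficient of variation was 34.7% in WT and 14.4% in GFAP-IL6, where the median gene of at least 10 CPM had 8.54% and 6.17%. The log2 fold change was between 0.83, without WT replicate 2, and 1.32, without WT replicate 1. The call was lost without GFAP-IL6 replicate 1 (edgeR, adjusted p = 0.0678) and without GFAP-IL6 replicate 2 (edgeR, adjusted p = 0.0521), while the fold changes stayed at 0.93 and 1.01. Junb was called in 12 of the 14 alternative analyses, with every fold change above 0. Prdx2 lies on the opposite strand and covers 7.52% of the exon bases of Junb. The level of Prdx2 was 151 ± 12.3 CPM for WT and 127 ± 3.36 CPM for GFAP-IL6 (edgeR, log2 fold change of -0.24, adjusted p = 0.139), opposite in sign to that of Junb. Whether the counting used strand is not given in the sources used here.

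Jun (ENSMUSG00000052684.4, chr4:95049034-95052222, minus strand, a single exon) encodes c-Jun, the founding Jun protein and a substrate of the JNK kinases. Its level was 31.8, 30.5 and 28.7 CPM in the 3 WT libraries and 31.6, 27.3 and 30.9 CPM in the 3 GFAP-IL6 libraries. The groups overlapped. The fitted log2 fold change was -0.01 with an SE of 0.09 (edgeR, adjusted p = 0.954), and its 95% interval of -0.22 to 0.19 leaves room for small changes in either direction. The sign of this value changed with the scaling, being 0.01 with library totals alone. Junos on the opposite strand covers 7.28% of the Jun exon and had 0 to 9 counts in a library.

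Jund (ENSMUSG00000071076.5, chr8:70698949-70700616, plus strand, a single exon) is the member with the steadiest expression in most tissues. It had 113, 93.3 and 105 CPM in WT and 108, 102 and 112 CPM in GFAP-IL6. No GFAP-IL6 library lay outside the WT range. Jund had a log2 fold change of 0.05 with an SE of 0.09 and an interval of -0.15 to 0.25 (edgeR, adjusted p = 0.782). It was 0.12 without WT replicate 1 and -0.02 without WT replicate 2. Gm11175 on the opposite strand covers 52.6% of the Jund exon of GENCODE M21 and had 291 to 578 counts. The reads of the pair cannot be told apart if strand was not used. That exon has 1668 bases, whereas the length given with the counts is 2878 bases. The share may therefore not hold for the gene model that was counted. Gm11175 itself had a log2 fold change of 0.10 (edgeR, adjusted p = 0.585).

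Fos (ENSMUSG00000021250.11, chr12:85473890-85477273, plus strand) is the gene most often used as a mark of recent neuronal activity. Its level was 23.3, 16.1 and 18.0 CPM in WT and 30.3, 29.7 and 23.8 CPM in GFAP-IL6. The groups were separated by a narrow gap, between 23.3 in WT replicate 1 and 23.8 in GFAP-IL6 replicate 3. The means were 19.1 ± 3.76 and 27.9 ± 3.61 CPM (SD over 3 libraries), a log2 fold change of 0.56 with an SE of 0.14, which is 1.47-fold with an interval of 1.19 to 1.83. The adjusted p of edgeR was 0.0603, above the threshold. Fos was called in 7 of 14 alternatives, among them DESeq2 (adjusted p = 0.0361) and the edgeR fit without WT replicate 1 (log2 fold change of 0.72, adjusted p = 0.00887). Without GFAP-IL6 replicate 1 its adjusted p was 0.225 (edgeR), the highest of the alternatives.

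Fosl2 (ENSMUSG00000029135.10, chr5:32135801-32157842, plus strand) encodes FRA-2, a Fos protein without the activation domain of FOS. It had 37.5, 29.7 and 39.9 CPM in WT and 42.4, 43.6 and 52.9 CPM in GFAP-IL6. Again the groups did not overlap, with 39.9 CPM as the highest WT value and 42.4 as the lowest GFAP-IL6 value. Fosl2 had a log2 fold change of 0.38 with an SE of 0.12, or 1.30-fold (edgeR, adjusted p = 0.122). Without GFAP-IL6 replicate 3, its highest library, the value was 0.27. Without WT replicate 2, its lowest, it was 0.26.

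Fosb (ENSMUSG00000003545.2, chr7:19302696-19310051, minus strand) is known for a truncated product, deltaFosB, that builds up with repeated stimulation, and gene-level counts do not separate the products. It had 14.3, 10.9 and 13.2 CPM in WT and 12.9, 13.998 and 15.6 CPM in GFAP-IL6. The lowest GFAP-IL6 library lay within the WT range. The log2 fold change of Fosb was 0.15 with an SE of 0.14 and an interval of -0.15 to 0.46 (edgeR, adjusted p = 0.550). It was 0.04 without WT replicate 2, 0.08 without GFAP-IL6 replicate 3, 0.24 without WT replicate 1 and 0.04 after thinning to the smallest library. Fosl1, the remaining Fos gene, was at 4.41 ± 0.633 CPM for WT and 3.96 ± 0.695 CPM for GFAP-IL6 (edgeR, log2 fold change of -0.16, adjusted p = 0.706).

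Maff (ENSMUSG00000042622.11, chr15:79346621-79359076, plus strand) had few counts, 13, 15 and 18 for WT and 9, 18 and 17 for GFAP-IL6, or 1.13, 0.89 and 1.13 CPM against 0.81, 2.38 and 1.90 CPM. GFAP-IL6 replicate 1 had the lowest level of all 6 libraries and the other two GFAP-IL6 libraries the highest. The log2 fold change of Maff was 0.63 with an SE of 0.38 (edgeR, adjusted p = 0.369). Its interval from -0.21 to 1.47 includes both no change and the fold of Junb. The value was 0.32 without GFAP-IL6 replicate 2, 1.02 without GFAP-IL6 replicate 1 (edgeR, adjusted p = 0.222) and 0.16 by DESeq2 with its prior.

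Atf3 (ENSMUSG00000026628.11, chr1:191170296-191218039, minus strand), a stress-induced bZIP protein that mostly represses its targets and is a common mark of injured neurons, was close to the limit of detection. Its counts were 6, 12 and 22 for WT and 4, 3 and 10 for GFAP-IL6, where a floor of 3 counts corresponds to 0.179 to 0.396 CPM. Its level was 0.52, 0.72 and 1.38 CPM in WT and 0.36, 0.40 and 1.12 CPM in GFAP-IL6. The ranges overlapped, and in each group replicate 3 was the highest. Fitted without the filter on low counts, the log2 fold change of Atf3 was -0.53 with an SE of 0.50 and an interval of -1.54 to 0.47 (edgeR, adjusted p = 0.626). The value rests on single libraries, as it was -0.05 without WT replicate 3 and -1.24 without GFAP-IL6 replicate 3, and -0.07 by DESeq2 with its prior.

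**Figure D2:**
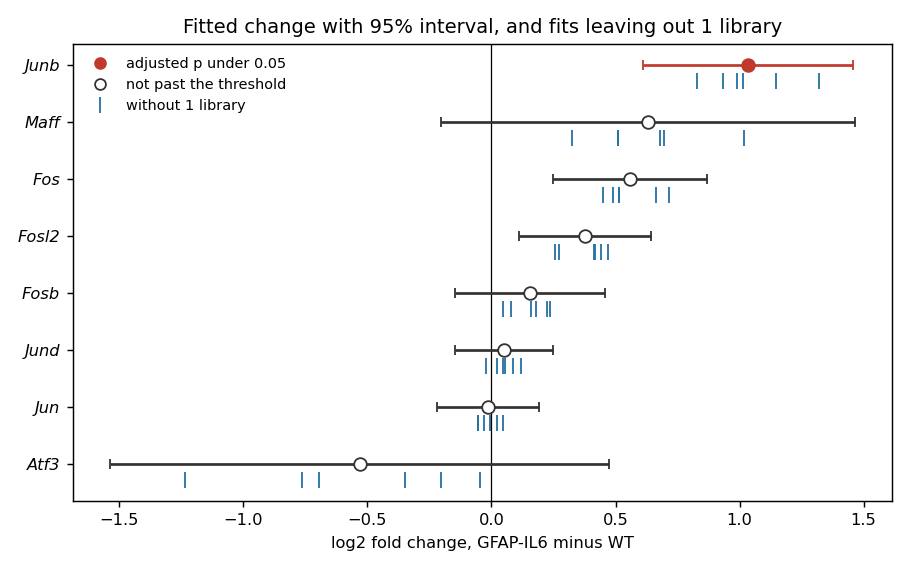
Fitted log2 fold change of each gene, GFAP-IL6 minus WT, with its 95% interval, ordered by size. The filled red point is past an adjusted p of 0.05, open points are not, and the blue ticks below each point are the values in the 6 fits that each leave out 1 library. Junb is at 1.03 and its ticks reach from 0.83 to 1.32, while the intervals of Maff, Fosb, Jund, Jun and Atf3 (fitted without the filter) include 0.

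Levels can be set side by side between genes only per length, for which TPM was computed from the counts and the gene lengths in the table. On the TPM scale, Jund had the highest level in WT (100 ± 12.6), followed by Junb (31.2 ± 11.7), Jun (26.4 ± 1.82), Fos (25.3 ± 5.70), Fosl2 (15.2 ± 2.57) and Fosb (9.48 ± 1.56). Junb, Jun and Fos overlapped in WT and have no clear order there. Jund lay above these 3 in every library, and Fosl2 and Fosb lay below them without overlap. Maff and Atf3 were lowest, with 1.38 and 1.12 TPM, and overlapped each other. In GFAP-IL6 the order was Jund (109 ± 5.75), Junb (65.7 ± 9.91), Fos (38.6 ± 5.16), Jun (27.4 ± 2.28), Fosl2 (20.6 ± 2.48) and Fosb (11.0 ± 0.995), and no neighbours among these 6 overlapped.

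Since Fos and Jun proteins act as pairs, the make-up of the pool of transcripts was described as the share of each gene in the summed TPM of Fos, Fosb, Fosl2, Jun, Junb and Jund. The sum was 244, 174 and 205 TPM in WT and 286, 265 and 265 TPM in GFAP-IL6. Junb had 18.0, 11.96 and 14.05% of that sum in WT and 26.1, 25.3 and 20.8% in GFAP-IL6. The share of Jund was 48.5 ± 2.04% in WT and 40.0 ± 2.38% in GFAP-IL6, and that of Jun 12.9 ± 1.65% and 10.1 ± 0.645%. Fos had 12.1 ± 0.766% and 14.2 ± 1.602%. The shares of Junb, Jund and Jun did not overlap between groups, those of Fos, Fosl2 and Fosb did, and shares that sum to a whole move together, so these are not separate results. The ratio of Junb to Jun, in TPM, was 1.54, 0.81 and 1.15 in WT and 2.57, 2.70 and 1.96 in GFAP-IL6. Junb transcripts were thus below those of Jun in 1 WT library and above them in each GFAP-IL6 library. These values describe transcripts, and no protein or dimer was measured.

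**Figure D3:**
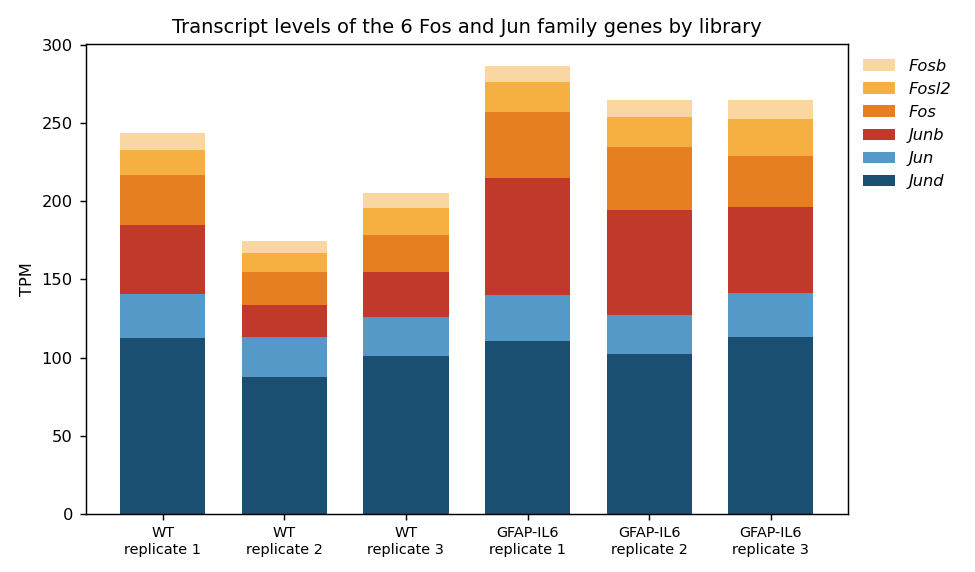
Stacked TPM of the 6 Fos and Jun genes in each library, from 0. Jund forms the base of each bar and differs little between groups, and the Junb segment is 20.9 to 43.9 TPM in WT and 55.1 to 74.8 TPM in GFAP-IL6.

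The libraries were not ordered alike for all members. WT replicate 2 was the lowest WT library for 6 of the 8 genes (all but Jun and Atf3), and WT replicate 1 was the highest for 6 (all but Fosl2 and Atf3). WT replicate 2 is the library with the high striatal sum. GFAP-IL6 replicate 1 was the highest of its group for Fos, Jun and Junb and the lowest for Fosb, Fosl2, Maff and Atf3. GFAP-IL6 replicate 3 was the lowest for Fos and Junb and the highest for Fosb, Fosl2, Jund and Atf3.

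The summed marker levels of microglia and vessels differed between the groups without overlap. Of 7 microglial markers, 6 were called higher, among them Cx3cr1, Tmem119, C1qa, Csf1r and Aif1, and P2ry12 had a log2 fold change of -0.27 (edgeR, adjusted p = 0.291) and was called lower without WT replicate 1. The summed level of the list was 356 to 441 CPM in WT and 663 to 764 in GFAP-IL6. Of 5 endothelial markers, 3 were called higher (Pecam1, Cldn5 and Flt1), with sums of 102 to 121 CPM and 172 to 204. Of 5 pericyte and smooth muscle markers, 1 was called (Rgs5), with sums of 138 to 163 CPM and 186 to 218. Of the neuronal, astrocyte, oligodendrocyte, cortical projection neuron, striatal, choroid plexus and blood markers, 37 were tested and edgeR called 0, beside 2.86% of all genes. The astrocyte list did not hold Gfap, which was higher in GFAP-IL6 (edgeR, log2 fold change of 2.84, adjusted p = 5.49e-06). An unadjusted p under 0.05 was seen for 10 of the 37, against 20.5% of all genes. DESeq2 called 2 (Aqp4 and Ppp1r1b), edgeR with no filter on low counts 9 of 38, and edgeR without WT replicate 2 called 4. Of the 7 neuronal markers, 6 had a log2 fold change below 0, 3 of them at an unadjusted p under 0.05 by edgeR. Over all genes, 49.4% had a value above 0, and 9.37% were lower at that unadjusted p. Of the 8 leukocyte markers, 0 passed the filter, and none had more than 4 counts in a library. Among those of T cells, Cd3d was at 0 in all 6 libraries, while Cd3e and Cd8a had at most 3 counts and lay higher in each GFAP-IL6 library than in any WT library. The part of these cell types in the levels of Junb, Fos and Fosl2 was not tested.

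The wider AP-1 pathway was read from 6 lists chosen by role, and their genes are given by count beside the 2.65% higher and 0.209% lower calls over all genes. Of 30 listed AP-1 relatives and partner bZIP genes, 24 were tested, 3 were called higher and 0 lower, and the median log2 fold change was 0.10. Cebpd, a C/EBP factor of the acute phase response, rose from 1.57 ± 0.707 to 4.53 ± 0.853 CPM (edgeR, log2 fold change of 1.49, adjusted p = 0.0184). Mafg, a small Maf like Maff, rose from 104 ± 11.0 to 138 ± 9.41 CPM (edgeR, log2 fold change of 0.40, adjusted p = 0.0432). The count of 3 fell to 1 without GFAP-IL6 replicate 2. Without GFAP-IL6 replicate 3 it was 0 by edgeR, with 3 genes at an unadjusted p under 0.05.

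Upstream of AP-1, kinases of the MAP kinase cascades switch on its genes and proteins. Of 22 listed kinases, 21 were tested, 1 was called higher and 0 lower, and the median log2 fold change was 0.03. The called gene was Map3k8, the kinase Tpl2 of inflammatory signalling, with 1.74 ± 0.182 CPM for WT and 3.67 ± 0.592 CPM for GFAP-IL6 (edgeR, log2 fold change of 1.06, adjusted p = 0.0339). The call was lost by DESeq2, after thinning to the smallest library (where Map3k14 was called) and in 5 of the 6 fits without 1 library, all but the one without WT replicate 1, which called 3 genes. In those 5 fits 0 kinases were called by edgeR and 4 to 6 had an unadjusted p under 0.05. SRF and its cofactors bind the Fos promoter in response to these kinases. All 6 listed were tested and 1 was called, Elk3, from 8.29 ± 0.870 to 12.5 ± 0.438 CPM (edgeR, log2 fold change of 0.60, adjusted p = 0.0319). That call was lost by DESeq2, after thinning, and without WT replicate 3 or any of the GFAP-IL6 libraries. In those 4 fits without 1 library, 1 or 2 of the 6 had an unadjusted p under 0.05 by edgeR.

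Immediate early genes of other families are induced by many of the same stimuli as Fos. All 25 listed were tested, of which 5 were called higher and 0 lower, 21 had a log2 fold change above 0, and the median was 0.32. Nr4a1, a nuclear receptor, rose from 54.2 ± 8.43 to 120 ± 13.4 CPM (edgeR, log2 fold change of 1.15, adjusted p = 0.0001). Arc, which acts at synapses, rose from 64.8 ± 22.5 to 217 ± 51.2 CPM (edgeR, log2 fold change of 1.75, adjusted p = 0.0007). The others were Klf2, a factor known from endothelium, with a log2 fold change of 1.07, Btg2 with 0.79 and Klf4 with 0.92. Egr1, named after its value was seen, had 305 ± 41.6 CPM for WT and 329 ± 31.1 CPM for GFAP-IL6 (edgeR, log2 fold change of 0.11, adjusted p = 0.578). The count of 5 was 3 without GFAP-IL6 replicate 1 and 3 without GFAP-IL6 replicate 2, being Arc, Nr4a1 and Klf2 in both.

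Downstream, MAP kinase phosphatases are induced with the immediate early genes and switch the kinases off. Of 10 listed, 9 were tested and 1 was called higher and 0 lower, with a median of 0.35. Dusp1 rose from 13.6 ± 2.05 to 29.6 ± 5.95 CPM (edgeR, log2 fold change of 1.13, adjusted p = 0.0011) and was called in each fit without 1 library. Of 26 textbook AP-1 target genes, 14 were tested, 1 was called higher and 0 lower, and the median was 0.32. Icam1, an adhesion molecule of endothelium and microglia, rose from 2.65 ± 0.182 to 6.26 ± 1.11 CPM (edgeR, log2 fold change of 1.24, adjusted p = 0.0044). The count of called targets was 2 without WT replicate 2 (Icam1 and Vim) and 2 without GFAP-IL6 replicate 1 (Icam1 and Ptgs2). Sprr1a, which marks injured neurons along with Atf3, was at 0 counts in all 6 libraries.

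**Figure D4:**
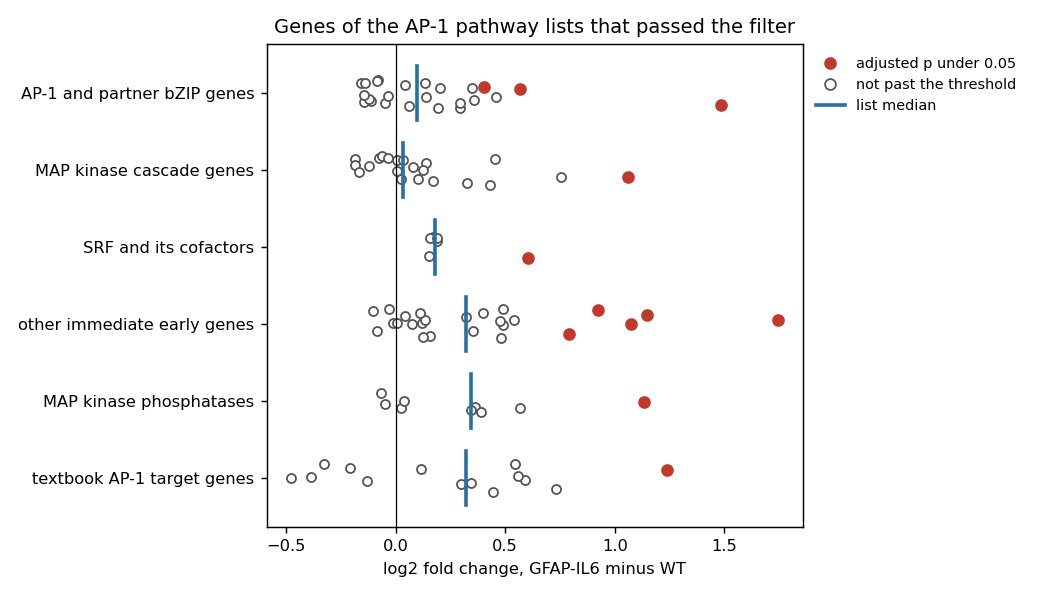
Log2 fold change, GFAP-IL6 minus WT, of each tested gene in the 6 pathway lists. Red points are past an adjusted p of 0.05 by edgeR, open points are not, and the blue bar is the list median. All 12 red points lie above 0, and the medians run from 0.03 for the kinases to 0.35 for the phosphatases.

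Genes whose pattern over the 6 libraries was most like that of each member were ranked by the root mean square difference of log2 CPM, each centred on its own mean, among 15034 tested genes of at least 1 CPM. This measure is a description over 6 points that share library and depth. Junb was closest to Tnfrsf1b (0.16), Rhbdf2 (0.18) and Nr4a1 (0.18), and had no neighbour nearer than that. Fos was closest to Gm26732 (0.06), Tbc1d2 (0.07) and Cd274 (0.07). Fosl2 was closest to Cdk5rap2 (0.04), Tmem151b (0.04) and Pcdhgb4 (0.05), and Fosb to Cntn5, Tcf3 and Vgf, each at 0.03. Jun was closest to Pdgfa, Rnf25 and Sart1 and Jund to Ppp1r9b, Ambra1 and Fam13b, all at 0.02 or 0.03. Maff was closest to Maml3 (0.07), Gm12942 (0.14) and Lpxn (0.15).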

How the data were processed

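The authors deposited a table of raw counts, whole numbers for each gene and library, made from TruSeq reads aligned to mm10 with STAR 2.4 and counted over GENCODE genes with featureCounts. The genome build field of the labels names a human build, and the strand setting of the counting is not given in the sources used here. The table also gives a gene length, used for TPM. Groups and replicate numbers came from the sample titles.

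The main test was the quasi-likelihood F-test of edgeR 4.0.16 (R 4.3.3) on all 6 libraries, with TMM scaling, filterByExpr and no covariate. P-values of the 15341 genes kept were adjusted by Benjamini-Hochberg. A gene was called at an adjusted p under 0.05. Standard errors were derived from F. DESeq2 1.42.0 was an alternative. Total counts ran from 7559524 to 16877001, and the floor of 3 counts covers counting error only. The chi-square per degree of freedom between libraries was 2.32 to 21.6, so none was a copy of another. On simulated counts with 200 genes changed, edgeR tested the 15341 genes that passed the filter. It recovered 89.5% of the changed genes, 84% of those at a log2 fold change of 1 and 95% at 2. Of its calls, 7.25% were false.

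Positions are from GENCODE M21 on GRCm38, which 32593 of 33000 identifiers matched. Exons and shares of exon bases also refer to M21. For some members its exon bases differ from the length given with the counts, among them Fosl2 (9680 against 6537) and Fosb (6243 against 3751). The AP-1 genes and the lists were chosen with earlier results of these data known. All 8 members were named, and of each list the called genes with the smallest adjusted p, up to 4 in each direction. Results for a few list genes are not reported here. Klf4, the 5th called immediate early gene, Fosl1 and Egr1 are named beyond that. For each member tested, the 3 genes most alike were named, with 0.5 CPM added before the log. Alternatives were DESeq2 with and without its prior, RLE or total scaling, no filter, a mean of at least 1 CPM, thinning to the smallest library, a replicate block and leaving out each library. Counts of called list genes in each alternative were added after seeing the data.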

Additional observations from a re-analysis of the deposited data

How the results depend on the processing

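All genes gave 439 calls, 1154 with no filter on low counts, 750 with the replicate block (438 shared) and 187 (without GFAP-IL6 replicate 3) to 1061 (without WT replicate 1) in fits without 1 library. The members gave 1 call, Junb. It was 2 (Fos and Junb) with DESeq2 with and without its prior, with library totals and after thinning, and 3 (with Fosl2) with no filter and with the block. On simulated counts, false calls were 14.3% with no filter and 9.55% with the block, against 7.25% for the main fit. The simulation had no replicate effect and as many genes raised as lowered, unlike the calls here. It therefore cannot tell whether the added calls of Fos and Fosl2 are false. Leaving out 1 library gave 0 to 2, with 0 without GFAP-IL6 replicate 1 or 2 and 2 without WT replicate 1. The cause of these shifts was not tested. The share of Junb in WT was 14.7% by TPM and 9.08% by CPM. The log2 fold change of Jun, -0.013, changed sign with library totals (0.011) and ran from -0.053 to 0.045 in fits without 1 library, and that of Jund, 0.051, from -0.021 to 0.12. The log2 fold changes of Fos, Fosl2, Fosb, Junb, Maff and Atf3 kept their sign in every alternative that fitted them. Atf3 was not tested at a mean of at least 1 CPM, nor Maff after thinning.

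The replicate numbers share no stated litter or batch. The deviations of same-numbered libraries correlated at 0.12, 0.02 and 0.05, and not every library correlated best with its own number, so the block is only a hint. With the block, the adjusted p of edgeR was 0.00146 for Junb, 0.0241 for Fos and 0.0396 for Fosl2. Depth limits Atf3 and Maff, with at most 22 and 18 counts in a library.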
